A study of Mus musculus with 2 samples.

Results

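The axonemal dynein and cilia- and flagella-associated protein (CFAP) genes are the 49 genes of the count matrices whose symbol starts with Dnah or Cfap followed by a number, out of 32285 genes in all. They comprise 15 dynein heavy chain genes, the antisense RNA Dnah2os and 33 Cfap genes. They were measured in mouse lung by droplet 3' single-cell RNA sequencing, 1 library per genotype. The first library came from wild-type (WT) mice and the second from mice labelled Plaur KO (Plaur encodes the urokinase receptor). Both carry the strain label C57B6/J. Every animal had received ovalbumin with lipopolysaccharide (days 0 and 7) and then an ovalbumin aerosol (day 14), so no unexposed lung was measured. The sort took CD45.2-negative cells and so left out most blood-derived cells, although the cell type label reads total lung cell lysate. The series has 8 mice per genotype. The number pooled in a library, and their age, is not given in the sources used here.

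Motile cilia are built on an axoneme, a ring of doublet microtubules around a central pair. Outer and inner dynein arms on the doublets are motors whose heavy chains, the Dnah products, split ATP and slide the doublets against each other. CFAP proteins line the inside of the microtubules, form the central apparatus, hold the inner arms and radial spokes in place or help to assemble the arms in the cytoplasm. In the lung these proteins are known from the multiciliated cells of the airways, which move mucus, and their genes are known targets of the transcription factors FOXJ1 and RFX.

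The libraries gave 10225 WT cells and 8934 KO-labelled cells after filtering, with medians of 4837 and 5538 UMIs (unique molecular identifiers, each counting 1 captured RNA molecule). They share 30 barcodes by name. Plaur itself was counted in both libraries, at 46.9 CPM (UMIs of the gene per 1000000 UMIs of the cells named) over all WT cells and 33.1 CPM over all KO-labelled cells. In ciliated-like cells it was higher in the KO-labelled library, 12.5 against 46.4 CPM. The same held in airway secretory-like cells, 8.25 against 20.8 CPM (35 UMIs in each library). A 3' tag can lie outside the altered part of a gene, and which part of Plaur is altered is not known here. The transcript was therefore not used to check the label. The name KO-labelled is used for the library with the knockout label. With 1 library per genotype no difference between them has a replicate check, and every interval given covers counting error only. Library and genotype cannot be told apart.

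RFX factors bind the X-box, and its sequence was searched in RefSeq promoters (GRCm38.p6, 250 bases before to 50 after each start), which were held for 40 of the 49 genes. A short X-box form, GTTGCCA on either strand, was in a promoter of 10 of these 40 genes (25%), against 5.02% of 27025 genes. A gene counted once if any of its promoters held the form, and the number of promoters per gene was not matched. The long palindromic form (GTTNCC, then NN, then GGNAAC) was in 1 of 40 (2.5%) against 0.529% of all genes. The short form is not part of every long form, so they were counted apart. The forkhead form TGTTTAC was in 3 of 40 (7.5%) against 4.05%. The following 29-base stretches show the short form in 1 promoter of each of the 10 genes, with the match in capitals, read 5′ to 3′ along the gene's strand. TGGCAAC is the same form on the other strand. Cfap161 has 3 matches and Cfap44 has 2, of which the one nearest the start is shown.
Dnah7b, chr1:46066679-46066707, plus strand: acaggagcacaGTTGCCAcccacccttaa
Dnah10, chr5:124725084-124725112, plus strand: ctagggtcgccGTTGCCAcggacgcccgc
Cfap20, chr8:95434947-95434975, minus strand: gaatagtccctTGGCAACcaagttccgcg
Cfap44, chr16:44394768-44394796, plus strand: ggacgttgctaTGGCAACcgcagtaaacg
Cfap58, chr19:47937642-47937670, plus strand: ggggcgtggcgGTTGCCAggcgaccgaag
Cfap74, chr4:155409192-155409220, plus strand: agcagccttccGTTGCCAtggagctgcgc
Cfap97d2, chr8:13705858-13705886, plus strand: cctgggtgccaTGGCAACcgtcacatgac
Cfap161, chr7:83794862-83794890, minus strand: cctggtcgtcaTGGCAACgaagcacgcta
Cfap298, chr16:90934893-90934921, minus strand: actgttgccccTGGCAACagccacttccg
Cfap300, chr9:8042981-8043009, minus strand: aacacaaagacTGGCAACctccttccatt

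The long form occurred only in the promoter of Cfap298, a gene for cytoplasmic assembly of dynein arms. Its 250 bases before the RefSeq start are shown with the long form in capitals. GENCODE M21 puts the start of Cfap298 at 90935114, so by that annotation these bases lie inside the gene. The stretch shown for Dnah7b also lies inside its GENCODE gene, which starts at 46066315, and so does that of Cfap74 (start at 155409190). The matches of Dnah10 (start at 124725085) and Cfap161 (minus strand, start at 83794880) lie inside too, though their stretches reach past the start. In the 250 bases of Cfap298 the short form lies nearer the start, in lower case here.
Cfap298, chr16:90934850-90935099, minus strand: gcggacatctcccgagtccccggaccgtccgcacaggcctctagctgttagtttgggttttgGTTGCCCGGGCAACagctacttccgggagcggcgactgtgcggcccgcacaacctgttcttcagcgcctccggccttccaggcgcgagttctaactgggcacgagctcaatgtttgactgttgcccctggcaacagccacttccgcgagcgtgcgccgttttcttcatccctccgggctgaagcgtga
These matches describe letters in the windows. No binding was measured, and the levels given next were not chosen by them.

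Ciliated-like cells formed 1 of 34 clusters, in which 16 of 18 ciliated markers, none of them a Dnah or Cfap gene, were among the 50 leading genes. The 49 genes had no part in the clustering or the naming. The class held 950 WT cells (9.29% of those kept, 95% interval 8.74 to 9.87) and 582 KO-labelled cells (6.51%, 6.01 to 7.05). Median depth was 5946 and 5954 UMIs per cell. This class held 91516 of 103800 WT UMIs of the 49 genes (88.2%, 88.0 to 88.4) and 51379 of 62295 KO-labelled ones (82.5%, 82.2 to 82.8). AT2-like cells, the surfactant-making cells of the alveolus, held 6061 and 8711 of them. There were 3801 AT2-like cells (37.2%) in WT and 5854 (65.5%) in KO-labelled lung.

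Together the 49 genes made up 1.59% of all UMIs of WT ciliated-like cells and 1.42% of those of KO-labelled ones. A UMI was found there for 48 and 47 of the genes. The median ciliated-like cell showed 30 of them in WT (quartiles 26 and 34) and 29 in KO-labelled lung (26 and 33). With each cell thinned to 1000 UMIs the medians were 12 and 10, over 944 and 579 cells, with 6 and 3 shallower cells left out. Airway secretory-like cells thinned in the same way had a median of 0 in both libraries. Their 379 and 124 cells kept 99 and 15 UMIs of the 49 genes.

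**Figure D1:**
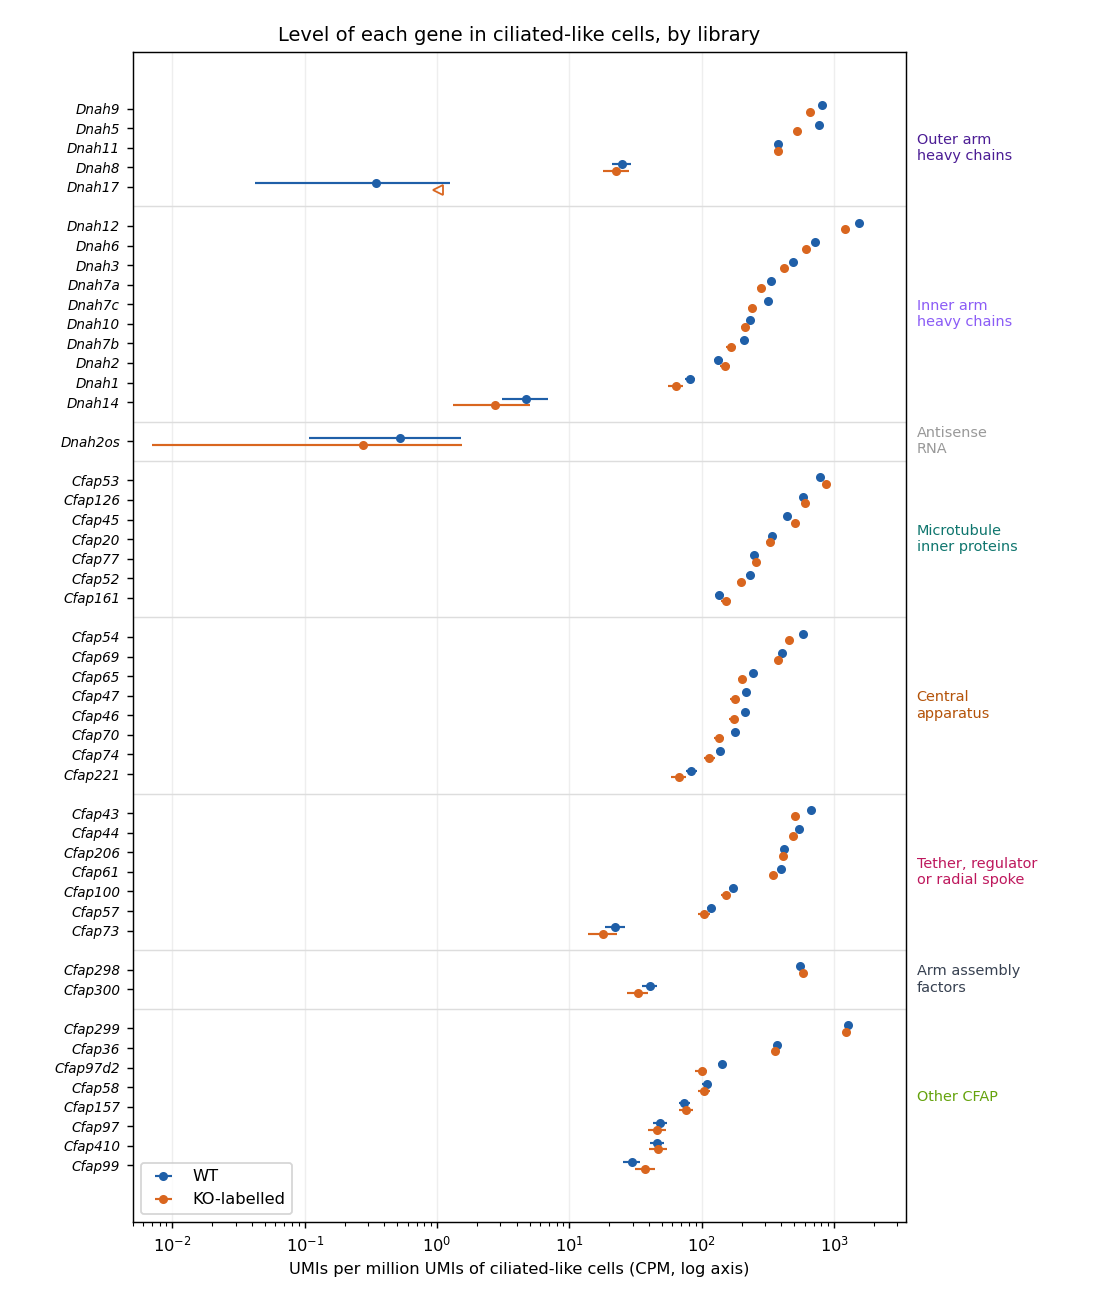
Level of each of 48 genes in ciliated-like cells, in CPM on a log axis, grouped by role, with the WT library in blue and the KO-labelled library in orange. Points are CPM, bars exact Poisson 95% intervals, and the open triangle marks the upper bound of a gene with 0 UMIs. Levels run from 1555 CPM for Dnah12 to under 1 CPM for Dnah17, and both libraries give nearly the same order. Cfap97d1, with 0 UMIs in both, is left out.

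Outer arm heavy chains were led by the airway forms. Dnah9 (chromosome 11, 65831282 to 66168551 in GRCm38, 69 exons), a motor of the outer arm in the distal cilium, stood at 816 CPM in WT and 653 CPM in KO-labelled ciliated-like cells. Dnah5 (chromosome 15, 28203752 to 28472052, 79 exons), the outer arm chain most often mutated in primary ciliary dyskinesia, was at 771 and 526 CPM. Dnah11, the proximal partner, was at 380.0 and 374 CPM. Dnah8 and Dnah17, paralogs known from sperm flagella, were far lower, at 24.9 and 22.6 CPM for Dnah8 and at 2 and 0 UMIs for Dnah17. For Dnah17 the 0 UMIs allow up to 1.02 CPM.

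Among inner arm heavy chains, Dnah12 (chromosome 14, 26693274 to 26891703, 74 exons) was the highest of all 49 genes, at 1555 CPM (1523 to 1588) in WT and 1213 CPM (1178 to 1250) in KO-labelled cells. Dnah6 followed with 715 and 615 CPM and Dnah3 with 487 and 417 CPM. These are single-headed inner arm motors. The chains of the double-headed inner arm, Dnah10 and Dnah2, were at 233 and 211 CPM and at 134 and 151 CPM. Dnah1, another single-headed motor, had 81.4 and 63.5 CPM, and Dnah14 gave 27 and 10 UMIs. The copies Dnah7a, Dnah7b and Dnah7c were at 333, 207 and 318 CPM in WT cells. The last 1000 bases of their transcripts are 96.9% to 97.5% identical between pairs, so the split of UMIs among them is uncertain.

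Of the microtubule inner proteins, which line the doublets, Cfap53 was at 778 and 874 CPM, Cfap126 at 579 and 601 CPM, Cfap45 at 443 and 504 CPM and Cfap20 at 341 and 326 CPM. Cfap77, Cfap52 and Cfap161 lay between 136 and 258 CPM. Cfap54, a large scaffold of the central apparatus, was at 577 and 456 CPM and led the 8 genes of that group. Cfap69, of the same structure, had 404 and 376 CPM. The other 6 ran down from Cfap65 at 244 and 201 CPM to Cfap221 at 83.6 and 66.8 CPM. Cfap43 and Cfap44, which tether the inner arm heads to the doublet, were at 675 and 503 CPM and at 547 and 490.5 CPM. Cfap206, a radial spoke protein, stood at 419 and 408 CPM. The remaining genes of this group ran from Cfap61, of the third radial spoke, at 396 and 348 CPM to Cfap73, which anchors inner arms, at 22.3 and 17.9 CPM. Of the assembly factors, Cfap298 was at 551 and 579 CPM and Cfap300 at 40.5 and 32.8 CPM. Cfap299 was the highest Cfap gene, at 1283 and 1229 CPM. It overlaps the gene Gm11111 on the same strand, so the origin of its UMIs is uncertain. The remaining Cfap genes with UMIs ran from Cfap36 at 371 and 357 CPM to Cfap99 at 29.6 and 37.5 CPM.

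CPM from 3' tags counts molecules and is not divided by transcript length. Divided by coding length, the order of the genes was another one. That order favours short genes and does not rank their numbers of molecules. Cfap299 led with 1806 CPM per coding kilobase over both libraries, followed by Cfap126 with 840.3, Cfap298 with 646, Cfap20 with 579 and Cfap53 with 529. Dnah12, whose coding sequence is 11880 bases long, came 14th with 119.8 CPM per coding kilobase. In both orders Dnah14 was the lowest of the genes with at least 20 UMIs.

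Detection in single cells followed the levels. Dnah12 gave a UMI in 96.2% of WT and 96.4% of KO-labelled ciliated-like cells, against 0.71% and 0.376% of AT2-like cells. The AT2-like cells were no shallower, with medians of 6380 and 6165 UMIs per cell. Cfap299 was seen in 96.5% and 97.4% of ciliated-like cells and 0.737% and 0.615% of AT2-like cells. Thinned to 1000 UMIs per cell, Dnah12 was seen in 72.7% and 60.3% of ciliated-like cells and Dnah5 in 51.9% and 36.4%.

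Against airway secretory-like cells, their neighbours in the airway lining, 42 of the 46 genes with at least 20 UMIs were at least 10-fold higher in ciliated-like cells in both libraries. The same held for 7.91% of 12965 genes tested. The secretory-like level of these 42 genes rested on 0 UMIs for 1 gene and on 1 to 3 for 8 in the WT library, and on 0 for 24 and 1 to 3 for 11 in KO-labelled cells. A 0 entered as 3 UMIs. Dnah5 stood at 771 against 2.12 CPM in the WT library, a 363-fold difference, and at 526 against 0.594 CPM in KO-labelled cells, where the lower value rests on 1 UMI. The exceptions were Cfap20 (8.46-fold and 9.97-fold), Cfap97 (3.75-fold and 3.53-fold), Dnah8 (6.2-fold in WT, and 22.6 against 1.78 CPM from 3 UMIs in KO-labelled cells) and Dnah14, for which no UMI in secretory-like cells gives lower bounds of 6.63-fold and 1.55-fold. Free RNA from broken cells can put UMIs of every abundant gene into other cells. The 18 ciliated markers stood at a median of 0.719% and 0.215% of their ciliated-like level in secretory-like cells, and at 0.136% and 0.0871% in AT2-like cells. The median over the 40 genes that did not pass 10% in both libraries in any of the 7 other compared classes was 0.66% and 0 in secretory-like cells and 0.157% and 0.139% in AT2-like cells, in the WT and KO-labelled library.

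Outside ciliated-like cells 9 of the 49 genes passed 10% of their ciliated-like level, in both libraries, in at least 1 of the 7 other classes with 100 cells or more per library. The same rule was met by 77.4% of the 23405 genes with a UMI in a compared class. Of the 9, Cfap97d1, Dnah17 and Dnah2os rest on a few UMIs in ciliated-like cells or none. The rule sets no floor there, so Cfap97d1, with 0 UMIs in ciliated-like cells, passed on 1 and 4 UMIs in AT2-like cells. The other 6, out of 46 genes with at least 20 UMIs there (92.4% of all 12232 such genes), were Dnah8, Cfap69, Cfap36, Cfap20, Cfap97 and Cfap410. They share no single role in the axoneme: Dnah8 is an outer arm motor, Cfap69 a central apparatus protein and Cfap20 a microtubule inner protein. The ciliated markers' median in these 7 classes ranged from 0 to 0.719% of the ciliated-like level.

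**Figure D2:**
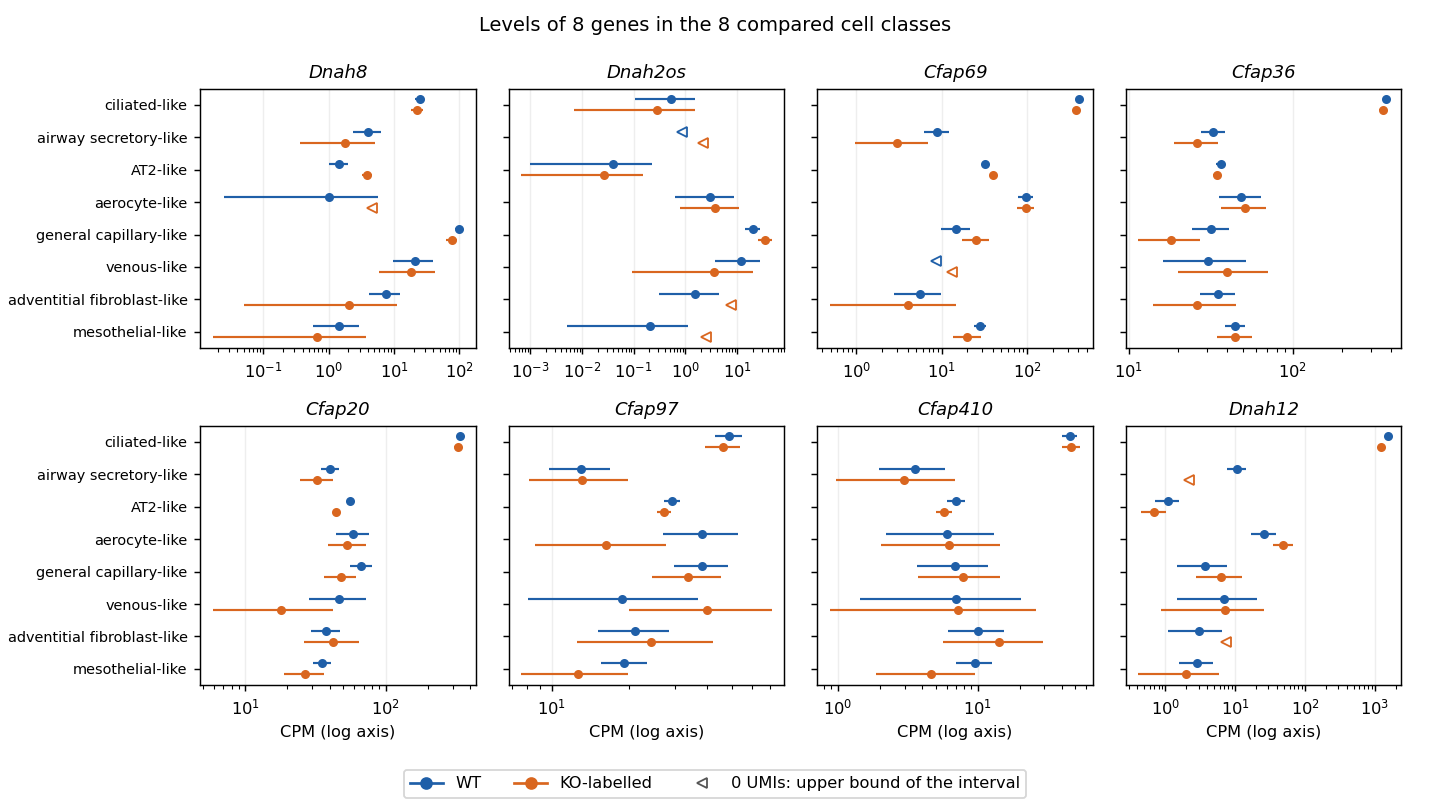
Level of 8 genes in the 8 compared cell classes, in CPM on log axes that differ between panels, with WT in blue and KO-labelled in orange. Points are CPM, bars exact Poisson 95% intervals, and open triangles the upper bound where no UMI was found. Of the 8 classes, general capillary-like cells have the highest level of Dnah8 and Dnah2os. Cfap69 has a second level in aerocyte-like cells, and Dnah12 is shown as a gene that is highest in ciliated-like cells and stays under 10% of that level in the other 7.

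Dnah8 was higher in general capillary-like than in ciliated-like cells. In general capillary-like cells, the endothelial cells of the alveolar capillary bed, it stood at 99.1 CPM (85.4 to 114.4, 187 UMIs) in the WT library and 76.2 CPM (61.8 to 92.9, 97 UMIs) in the KO-labelled library. That was 399% and 337% of its level in ciliated-like cells. Ciliated-like cells, at 24.9 and 22.6 CPM, and venous-like cells, at 21.1 and 18.1 CPM, came next among the 8 compared classes and did not differ beyond their counting intervals. Aerocyte-like cells, the other capillary type, had 1 and 0 UMIs. Within the general capillary class, Dnah8 was seen in 14.0% of 1067 and 11.3% of 727 cells of the larger cluster and in 3.47% of 202 and 2.63% of 114 cells of the smaller. The median depth of these clusters was 1306 to 1511 UMIs per cell. No cell of the class held more than 4 Dnah8 UMIs. Dnah8 spans 253 kilobases and overlaps 4 genes on the other strand, among them Glo1. Whether introns were counted, and which strand was used, is not given in the sources used here.

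The antisense RNA Dnah2os was also highest in general capillary-like cells, at 20.1 CPM (38 UMIs) and 34.6 CPM (44 UMIs). Ciliated-like cells gave 3 and 1 UMIs. It lies inside Dnah2 on the other strand. Dnah2 was at 134 and 151 CPM in ciliated-like cells and at 8.48 and 8.64 CPM (16 and 11 UMIs) in general capillary-like cells, 6.34% and 5.73% of that level. The ciliated markers' median there was 0.152% and 0.16%. Cfap69 reached 96.8 CPM in WT and 97.04 CPM in KO-labelled aerocyte-like cells, 24.0% and 25.8% of its ciliated-like level. The smaller of the aerocyte-like clusters carried 224 and 197 CPM and the larger one 61.8 and 69.7 CPM, with intervals that do not overlap in either library. In AT2-like cells Cfap69 was at 32.4 and 40.3 CPM, which passed 10% in the KO-labelled library.

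Cfap97 and Cfap410 were broad. Cfap97 passed 10% in all 7 classes, from 12.7 to 39.8 CPM against 48.7 and 46.1 CPM in ciliated-like cells. Cfap410, known as a partner of the kinase NEK1, passed it in 6 classes with 4.67 to 14.1 CPM, against 45.7 and 46.6 CPM. Cfap20 passed it in 5 classes with 32.7 to 66.8 CPM and Cfap36 in aerocyte-like and mesothelial-like cells with 44.6 to 51.0 CPM. Some smaller patterns were chosen after their values were seen. Cfap43 reached 110.0 CPM (20 UMIs) and 139.9 CPM (7 UMIs) in the 145 and 25 neutrophil-like cells, and it overlaps Itprip on the same strand. Cfap36 was at 114 CPM (42 UMIs) and 129 CPM (12 UMIs) in the 80 and 20 neuroendocrine-like cells. The ciliated markers' median in those cells was 0 and 6.53% of the ciliated-like level. Dnah8 was at 26.5 CPM (10 UMIs in 7 of 192 cells) and 27.1 CPM (4 UMIs, all in 1 of 47 cells) in B or plasma-like cells. The ciliated markers' median in that class was 1.36% and 4.42%. Dnah11 and Dnah12 had 42.4 and 26.2 CPM in WT and 13.7 and 48.5 CPM in KO-labelled aerocyte-like cells. Cfap47, a central apparatus gene, had 10.7 and 12.8 CPM in AT2-like cells, where it was seen in 6.02% and 6.9% of cells.

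The series sets KO-labelled against WT lung after allergen exposure, and here the comparison is of ciliated-like cells. Of the 46 genes with at least 20 UMIs, 36 had a lower CPM in KO-labelled than in WT ciliated-like cells and 10 a higher one. The median log2 ratio, KO-labelled over WT, was -0.18, against -0.06 for all 12232 genes with at least 20 UMIs, of which 58.8% were below 0. The differences were small. None of the 46 genes was at least 1.5-fold higher (4.33% of all genes) and 1 was at least 1.5-fold lower (7.2% of all genes). That 1 gene was Dnah14, at 27 and 10 UMIs, with an interval on both sides of 0 (log2 ratio -0.77, -1.98 to 0.33). With each cell thinned to 1000 UMIs, 6 of the 45 genes that then had at least 20 UMIs were at least 1.5-fold lower, Dnah5 among them, against 11.1% of all 8335 such genes. The counting interval lay below 0 for 25 of the 46 genes (13.1% of all genes) and above 0 for 5 (7.12%). Such intervals narrow with depth, and the 46 genes had a median of 2121 UMIs over both libraries against 244 for all genes.

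**Figure D3:**
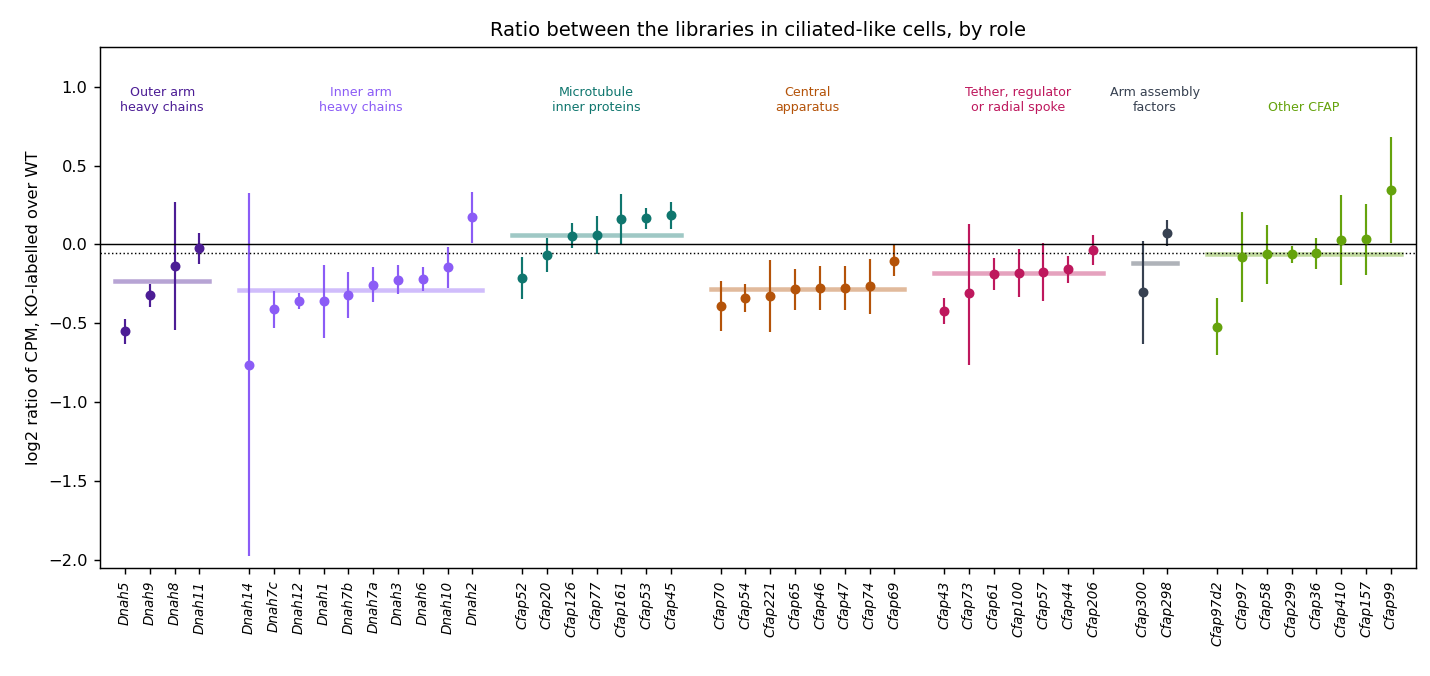
The log2 ratio of CPM, KO-labelled over WT, for the 46 genes with at least 20 UMIs in ciliated-like cells, grouped by role. Points are genes, vertical bars exact 95% counting intervals, thick horizontal bars the median of each role, and the dotted line the median of all 12232 genes (-0.06). All 8 central apparatus genes lie below 0, and 5 of the 7 microtubule inner protein genes lie above it.

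By role, 13 of 14 heavy chains were lower in the KO-labelled library (58.8% of all genes were), with a median log2 ratio of -0.29. Dnah5 had the lowest ratio of the genes with at least 100 UMIs, -0.55 (-0.63 to -0.47). Dnah7c was at -0.41, Dnah12 at -0.36, Dnah9 at -0.32, and Dnah6 and Dnah3 both at -0.22. Dnah11 was at -0.02 (-0.12 to 0.08). Dnah2 was the exception, at 134 against 151 CPM (0.17, 0.01 to 0.33). The summed CPM of the heavy chains was 6060.4 in WT and 4934 in KO-labelled cells.

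All 8 central apparatus genes were lower, with ratios from -0.39 to -0.10 and a median of -0.28. Each of their 8 intervals lay below 0, against 13.1% of all genes. Such intervals are narrower at depth, and these genes had a median of 1869.5 UMIs against 244 for all genes. Cfap54 was at -0.34 and Cfap69 at -0.10. The 7 genes of the inner arm tether, its regulators and the radial spokes were also all lower (median -0.18), among them Cfap43 with -0.42 (-0.50 to -0.34), Cfap44 with -0.16 and Cfap206 with -0.04. Microtubule inner protein genes had a median of 0.06, and 5 of 7 were higher. Cfap45 was at 0.18 (0.10 to 0.27) and Cfap53 at 0.17 (0.10 to 0.23). Cfap126 was at 0.05 and Cfap20 at -0.07. The assembly factor Cfap298 was at 0.07. Cfap97d2, from the remaining Cfap genes, was among the lowest at 142.9 against 99.6 CPM (-0.52, -0.70 to -0.34), and Cfap99 was the highest at 29.6 against 37.5 CPM (0.35, 0.01 to 0.68). Cfap299 was at -0.06. With edgeR's TMM scaling, which adds 0.05 to every ratio, the counts became 12 of 14 lower for heavy chains and 6 of 7 for tether, regulator and spoke genes, with Dnah11 and Cfap206 above 0. The central apparatus and microtubule inner protein counts were the same under that scaling.

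At Leiden resolution 2 the ciliated-like cells split into 3 sub-clusters, and the summed CPM of the 49 genes was lower in the KO-labelled library in each. It was 15517 against 14122 CPM in the largest (653 and 480 cells), 17934 against 16744 in the next (190 and 48 cells) and 13874 against 12199 in the third (107 and 54 cells). Dnah5 was lower in each, at 727 against 521, 974 against 671 and 588 against 431 CPM. Cfap53 was higher in each, at 785 against 853, 713 against 886 and 877 against 1019 CPM. The sub-clusters are parts of the same cells and the same 2 libraries, so they are not independent repeats. Dnah5 and Cfap53 are also among the 4 lowest and the 4 highest ratios of the whole class.

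RNA of other cells moved with the libraries within the ciliated-like class. The 12 AT2 markers summed to 3141 CPM in WT and 10992 CPM in KO-labelled ciliated-like cells, among them Sftpc at 1883 and 7204 CPM. Sftpc did not move the same way in every sub-cluster. It was at 2186 against 8252 CPM in the largest and at 589 against 5646 CPM in the third. In the sub-cluster of 190 and 48 cells it was lower in the KO-labelled library, at 1759 against 545 CPM. The 17 airway secretory markers summed to 13245 and 10512 CPM, with Scgb1a1 at 4833 and 3190.0 CPM. The chaperone gene Hspa8 stood at 2122 and 4522 CPM. Their part in the ratios was not tested. Leaving 751 genes counted as AT2 or secretory genes out of the totals moved every ratio by 0.01. These 751 genes held 1.05% of WT and 1.81% of KO-labelled UMIs of the class. They thus cannot include all the markers summed above, and RNA of other cells was not fully taken out. The 18 ciliated markers had a median log2 ratio of -0.00 (from -0.33 for Hydin to 0.16 for Mapk15) and sums of 16442 and 15891 CPM.

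The ratios ran lower in genes with a longer span, the distance from first to last annotated base. This grouping was chosen after the ratios were seen. The 13 genes over 200 kilobases were all below 0, with a median of -0.27. All 636 genes of that span class had a median of -0.15, and their share below 0 is not given here. Over all spans 58.8% of 12232 genes were below 0. The 6 genes up to 20 kilobases had a median of 0.03 and the 11 from 20 to 50 kilobases one of -0.08. The genes from 50 to 100 and from 100 to 200 kilobases, 10 and 6 of them, were at -0.22 and -0.18. The medians of all genes of the class fell from each span class to the next, from -0.00 and -0.07 through -0.10 and -0.12 to -0.15, while those of the 46 genes did not fall at every step. The medians also fell from the shortest to the longest span class in each of the 7 other compared classes, for example from -0.03 to -0.39 in mesothelial-like cells and from -0.07 to -0.18 in AT2-like cells.

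**Figure D4:**
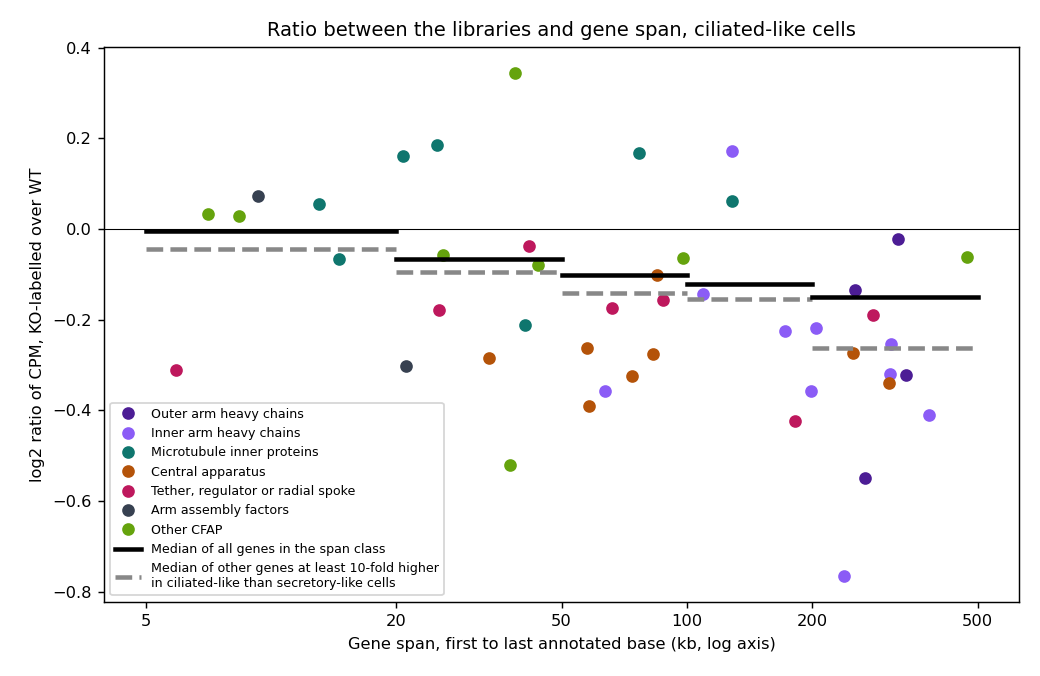
The log2 ratio of CPM, KO-labelled over WT, in ciliated-like cells against gene span in kilobases on a log axis. Points are the 46 genes coloured by role, black bars the medians of all genes in each of 5 span classes, and dashed grey bars the medians of other genes at least 10-fold higher in ciliated-like than secretory-like cells. Above 200 kilobases all 13 genes lie below 0 and the grey bar is at -0.26. The outermost classes hold genes of every span below 20 and above 200 kilobases, also beyond the bars.

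Other genes that are at least 10-fold higher in ciliated-like than in secretory-like cells gave the nearest comparison. Their median was -0.11 over 984 genes and -0.26 over the 70 of them longer than 200 kilobases. Of the 46 genes, 24 lay below the median of these other genes in their own span class, with a median difference of -0.01. By role the split was 7 of 8 for the central apparatus (median difference -0.13), 2 of 7 for the microtubule inner proteins (0.22), 6 of 10 for inner arm (-0.06) and 2 of 4 for outer arm heavy chains (0.03). It was 5 of 7 for the tether, regulator and spoke genes (-0.03), 1 of 2 for the assembly factors (-0.05) and 1 of 8 for the remaining Cfap genes (0.07). Heavy chains had a median span of 246 kilobases, central apparatus genes 78.4 and microtubule inner protein genes 25.1. Across the 46 genes the log2 ratio and the log10 span had a Pearson r of -0.39 and a Spearman rho of -0.37, given as a description of genes that share the same 2 libraries. The labels do not say whether intronic reads, which grow with span, were counted.

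Partner genes of the same machinery, listed by function, differed little between the libraries. The counts below 0 in each list stand beside 58.8% of all 12232 genes below 0. The intermediate and light chains of the arms had a median log2 ratio of -0.08 (8 of 10 below 0), with Dnaic1 (now Dnai1) at 183 and 176 CPM and Dnaic2 (now Dnai2) at 133 and 106 CPM. The 7 docking and ruler genes were all lower (median -0.19), among them Ccdc39 at 552 and 485 CPM and Ccdc40 at 186 and 157 CPM, whose products set the spacing along the doublet. Assembly factors were at -0.12 (9 of 11 below 0), with Dnaaf1 at 65.02 and 53.8 CPM. Radial spoke, nexin and central pair genes were at -0.12 (13 of 18 below 0). Of these, Rsph1, a spoke head gene, was at 765 and 809 CPM, while Hydin, a central pair gene of great length, was at 543 and 433 CPM. Genes of cytoplasmic dynein and intraflagellar transport, which builds the cilium, were at -0.09 (16 of 25 below 0). Dync2h1, the motor of retrograde transport, was at 406 and 362 CPM and Dync1h1, the general cytoplasmic motor, at 114 and 102 CPM. All these medians lay between those of the 46 genes and of all genes, except that of the docking and ruler genes. The genes of transcription control were at -0.09 (6 of 9 below 0). Of these, Foxj1 was at 568 and 564 CPM (-0.01, -0.09 to 0.07), Rfx2 at 123 and 123 CPM (0.01) and Rfx3 at 412 and 386 CPM (-0.09). Trp73, at 83.97 and 67.9 CPM (-0.31, -0.53 to -0.08), was the only one of these 9 genes whose interval lay below 0 (13.1% of all genes). E2f5 was at -0.28 (-0.63 to 0.07). Gmnc, with fewer than 20 UMIs and so not among the 9, gave 10 and 0 UMIs, and its interval also lay below 0. Past 1.5-fold among the partner genes with at least 20 UMIs were Dynlt1b (26 and 28 UMIs, 0.77, -0.05 to 1.60) and Wdr19 (103 and 67.4 CPM, -0.61, -0.84 to -0.40). Of all genes, 4.33% were at least 1.5-fold higher and 7.2% at least 1.5-fold lower. Trp73, E2f5, Gmnc, Dynlt1b and Wdr19 were named after their values were seen.

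A cluster of 52 cells named from proliferation markers, 37 WT and 15 KO-labelled, held a few cells that carried part of the set at high level. Of these, 11 (9 WT and 2 KO-labelled) had a UMI of Deup1, Cdc20b or Mcidas, genes known from cells that are multiplying centrioles before they grow cilia. This split was made after the data were seen, and the values pool both libraries. In the 11 cells Scgb1a1 was also high, at 142285 CPM, and the part of secretory RNA in their values was not tested. The proliferation markers were lower in them than in the other 41 cells, Mki67 at 67.9 CPM (10 UMIs in 4 cells) against 751 CPM and Top2a at 292 against 847 CPM. The 49 genes summed to 8807 CPM (8335 to 9300), 57.8% of the ciliated-like level. In the other 41 cells the sum was 389 CPM.

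The genes did not stand in the same proportion as in ciliated-like cells. Dnah8 was at 149 CPM (93.5 to 226, 22 UMIs in 6 cells) against 24.0 CPM in ciliated-like cells. Cfap36 was at 916 CPM (768 to 1084) against 365 CPM, and Cfap298 at 753 CPM (620 to 907) against 562 CPM. At the other end, Cfap53 was at 47.5 CPM (19.1 to 97.9) against 815 CPM and Dnah3 at 40.7 CPM (14.9 to 88.6) against 459.7 CPM. Cfap97d2 gave no UMI, which allows up to 25.03 CPM by its interval, against 126 CPM. Dnah9 stood at 156 against 753 CPM, Dnah5 at 224 against 676 CPM and Dnah12 at 604 against 1423 CPM, so these arm motors were below their ciliated-like level too. Dnah2, at 197 against 140.3 CPM, and Foxj1, at 543 against 567 CPM, did not differ from it beyond their intervals. Dnah8 was present in the remaining 41 cells too, at 71.3 CPM (24 UMIs in 13 cells).

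**Figure D5:**
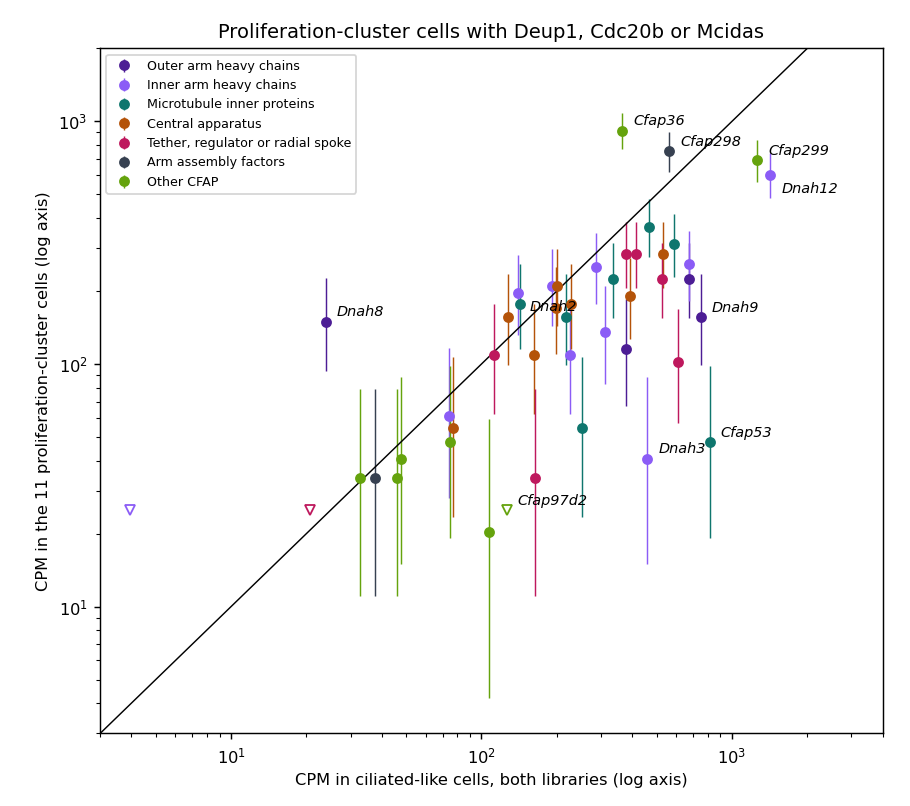
CPM of the genes in the 11 cells of the proliferation cluster with a UMI of Deup1, Cdc20b or Mcidas (vertical, log axis) against CPM in ciliated-like cells of both libraries (horizontal, log axis), coloured by role. The line marks equal levels, bars are exact Poisson 95% intervals, and open triangles are upper bounds for genes with 0 UMIs. Dnah8 and Cfap36 lie above the line, and Cfap53 and Dnah3 lie far below it.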

How the data were processed

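Both deposited matrices hold raw UMI counts per gene and barcode, which the authors made with Cell Ranger (7.0.0 and 7.1.0, mm10, per the submitters' processing notes). Barcode selection and intron counting are not given in the sources used here. Barcodes needed 500 genes and no more than 15% mitochondrial UMIs, and Scrublet in scanpy 1.11.5 (expected 8%) removed 617 doublets (5.69%) from WT and 175 (1.92%) from KO-labelled barcodes. The libraries were clustered jointly (2000 variable genes, 30 components, 15 neighbours, Leiden resolution 1). The 49 genes, Plaur and mitochondrial, ribosomal, haemoglobin and sex-linked genes took no part. A cluster of 20 cells or more took a class name from at least 3 markers among its 50 leading genes (fold over the median cluster, 10 CPM added, 20% detection). It stayed unnamed where another class tied with it, or had more markers among the 10 leading genes, or where its cells were far shallower than their library and none of its markers was among those 10. This gave 18 classes. Counting proliferation as a class was decided after the clusters were seen.

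Sums of UMIs over the cells of a class, per library, are given as CPM with exact Poisson 95% intervals. Ratios have exact conditional binomial intervals and shares Clopper-Pearson intervals. No test or p-value was computed. A 0 stands at a floor of 3 UMIs per library and class in ratios. On simulated data the intervals were checked before use. Positions and spans are from GENCODE M21 (GRCm38). Alternatives were other cell filters, doublets kept, other resolutions, separate clustering, TMM (edgeR 4.0.16), other totals, thinning, means over cells and other minimums.

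The genes and lists were chosen with earlier results of these data known. Named genes were the 6 Dnah and 10 Cfap genes of highest CPM, the 4 highest and 4 lowest ratios with at least 100 UMIs, every gene over 10% of its ciliated-like level elsewhere, those without a UMI there, and fixed partner genes. Marker genes served as checks.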

Additional observations from a re-analysis of the deposited data

How the results depend on the processing

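The median log2 ratio of the 46 genes in ciliated-like cells was negative under every alternative run, from -0.22 (1000 genes and 10% mitochondrial UMIs) to -0.13 (TMM factors). The share of the genes' UMIs in ciliated-like cells, 88.2% and 82.5%, was 89.29% in WT with 200 genes and 25% mitochondrial UMIs, 89.67% and 83.23% with 1000 genes and 10%, 84.59% and 82.17% with doublets kept, and 89.25% in WT with the libraries clustered apart. The stricter filter put ciliated-like cells at 11.27% and 7.605% of kept cells. Thinning to 1000 UMIs left 20 genes at least 10-fold above secretory-like cells, since the floor of 3 UMIs is then a higher level, and put 6 genes at least 1.5-fold lower (11.1% of all genes at that depth). That count was 0 for means over cells and for genes with at least 100 UMIs, a minimum that leaves out Dnah14. Of 275 values of named genes under the alternatives, 254 moved by less than their counting interval. With doublets kept, genes with many UMIs moved further than that. These were Dnah12 (to -0.27), Dnah9 (-0.24), Dnah6 (-0.14), Cfap43 (-0.34), Cfap45 (0.27), Cfap53 (0.24) and Cfap299 (0.02), of which Cfap299 changed sign. Cfap99 ranged from -0.03 to 0.40, Cfap410 from -0.02 to 0.58, Cfap97 from -0.65 to 0.06 and Dnah7c from -0.82 to -0.36. The cause of these moves was not tested. No paired analysis was possible because there is 1 library per genotype. Depth limits Dnah14, Dnah17, Dnah2os, Cfap97d1 and all classes under 100 cells.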
